A study of Mus musculus with 12 samples.

Results

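The pancreatic islet hormones were followed as a group of genes across sorted medullary thymic epithelial cells (mTECs). The members were chosen by name, as Ins1, Ins2, Iapp, Ppy, Sst, Gcg and Pyy, and each was read from the brightest probe set whose only gene symbol was that name. Of the 7 genes sought, 6 were measured, each by 1 probe set, among 22154 genes in all. Ins1 was not analysed here.

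The study hybridised RNA of cells from thymi of C57BL/6 mice aged 4 weeks to 12 single-channel arrays. The cells were sorted as DAPI-negative, CD45-negative, Epcam-positive, UEA-positive and Ly51-low, and split into MHC class II high cells (mTEChi) and MHC class II low cells (mTEClo). The groups were Aire+/+, Aire-/-, Brg1+/+ and Brg1-/- mTEChi, with 2 arrays each, and the same 4 genotypes in mTEClo, with 1 array each. The labels name no agent, no Cre and no promoter that drives the loss of Brg1, and nothing in them ties the replicates to different animals. The p-values therefore cover only the spread between arrays of a group, part or all of which could be technical.

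Medullary thymic epithelial cells transcribe genes that are otherwise restricted to single peripheral tissues, which exposes developing T cells to those self proteins. Aire is the nuclear regulator on which a large share of this promiscuous expression depends, and Brg1, encoded by Smarca4, is the motor subunit of SWI/SNF complexes, which move nucleosomes. In the pancreas the islet hormones divide by cell type: insulin and islet amyloid polypeptide come from beta cells, glucagon from alpha cells, somatostatin from delta cells and pancreatic polypeptide from PP cells, while peptide YY is made mainly by gut endocrine cells and by some islet cells. Thymic insulin is a classical example of a peripheral self antigen made by mTECs.

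The arrays were close in overall brightness, with medians between 5.07 and 5.32 (log2 intensity). The costimulatory gene Cd80, which marks mature mTECs, read 8.96 to 10.45 on the mTEChi arrays and 6.18 to 6.96 on the mTEClo arrays, and the medullary keratin gene Krt14 read 10.57 or more on every array. In mTEChi, Aire itself was at 8.04 and 8.80 on the arrays labelled wild type and at 9.01 and 9.73 on those labelled Aire-/-. Smarca4 was at 6.13 and 6.89 on Brg1+/+ arrays, against 5.88 and 5.44 on Brg1-/- arrays. Where these probe sets lie relative to the deleted parts of the genes is not known here, so they check neither label, and directions below are those of the labelled groups. The 4 mTEChi arrays numbered 2 differed from those numbered 1 in the summed intensity of 12 myeloid and B cell markers. It was 1908 to 2195 on arrays numbered 2 and 1249 to 1411 on arrays numbered 1. A sum follows the brightest genes, and the median log2 intensity of this list overlapped. That median was 5.11 to 5.42 on arrays numbered 2 and 5.19 to 5.38 on arrays numbered 1. Each mTEChi group holds both numbers. The summed intensity of 11 thymocyte markers was highest in Brg1-/- mTEChi replicate 2 (2429) and lay between 574 and 1356 on the other mTEChi arrays and between 427 and 513 on the mTEClo arrays.

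The sequence upstream of the members is shown because 4 of them were lower without Aire while Gcg, shown last, overlapped between genotypes. No upstream sequence of Ins2 was at hand, so Gcg alone stands for the measured hormones that did not pass the test given below. Each line gives the 250 bases before the annotated transcription start, 5′ to 3′ on the strand of the gene, from RefSeq on GRCm38.p6. The stretches are chr11:102101320-102101569 (minus strand) for Ppy, chr11:102107833-102108082 (minus strand) for Pyy, chr16:23890845-23891094 (minus strand) for Sst, chr6:142298175-142298424 (plus strand) for Iapp and chr2:62483654-62483903 (minus strand) for Gcg. For Pyy the first of 2 listed start sites was used. Capitals mark matches to TATAAA (forward strand, the letters of the TATA box), to TGACGTCA (both strands, the letters of the cAMP response element) and to TAAT or its reverse complement ATTA (the core read by many homeodomain proteins, Pdx1 among them). Neighbouring matches can overlap and then form 1 run of capitals.
Ppy: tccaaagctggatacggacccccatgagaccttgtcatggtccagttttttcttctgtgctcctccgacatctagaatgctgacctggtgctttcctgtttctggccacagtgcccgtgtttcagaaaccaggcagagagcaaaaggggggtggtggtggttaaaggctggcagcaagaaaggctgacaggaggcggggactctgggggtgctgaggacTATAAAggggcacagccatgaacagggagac
Pyy: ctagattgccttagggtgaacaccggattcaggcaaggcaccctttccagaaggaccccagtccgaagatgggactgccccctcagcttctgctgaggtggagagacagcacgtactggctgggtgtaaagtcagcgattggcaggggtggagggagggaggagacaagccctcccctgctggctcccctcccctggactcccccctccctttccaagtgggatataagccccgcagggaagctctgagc
Sst: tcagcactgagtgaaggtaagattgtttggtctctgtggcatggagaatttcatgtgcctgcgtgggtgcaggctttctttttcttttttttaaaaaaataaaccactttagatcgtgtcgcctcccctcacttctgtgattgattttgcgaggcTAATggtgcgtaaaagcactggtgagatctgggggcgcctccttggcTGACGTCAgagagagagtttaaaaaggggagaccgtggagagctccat
Iapp: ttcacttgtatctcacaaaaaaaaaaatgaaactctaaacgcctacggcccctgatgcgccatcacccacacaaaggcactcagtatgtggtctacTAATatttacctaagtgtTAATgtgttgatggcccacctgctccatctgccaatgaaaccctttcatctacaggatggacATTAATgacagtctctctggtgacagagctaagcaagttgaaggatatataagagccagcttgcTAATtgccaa
Gcg: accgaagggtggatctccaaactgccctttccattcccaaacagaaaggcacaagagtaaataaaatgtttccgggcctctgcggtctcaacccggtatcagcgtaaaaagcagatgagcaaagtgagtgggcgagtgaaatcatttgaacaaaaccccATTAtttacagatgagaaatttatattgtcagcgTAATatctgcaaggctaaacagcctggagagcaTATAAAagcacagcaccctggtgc

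No motif searched was found in all 5 stretches. TATAAA was found in Ppy and in Gcg and in 7.59% of the 32851 promoter windows of this length. TGACGTCA was found in Sst alone among the 5 and in 1.55% of all windows. TAAT was found in Iapp (5 matches), Gcg (2) and Sst (1), not in Ppy or Pyy, and in 54.9% of all windows. A motif searched but not marked, CANNTG (both strands, the E-box), had 3 matches in Iapp, 3 in Gcg, 1 in Sst, 1 in Pyy and 0 in Ppy, and was present in 66.2% of all windows. The GC content was 61.2% for Pyy, 55.2% for Ppy, 47.2% for Sst, 44.8% for Gcg and 42.8% for Iapp. These matches describe letters in a window and carry no information on binding.

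The first comparison asked which islet hormones in mTEChi depended on Aire. Ppy, Sst, Pyy and Iapp fell in the arrays labelled Aire-/-, by between 4.89-fold and 31.8-fold, whereas Gcg and Ins2 did not pass the test. The test was limma's moderated test over 22154 genes with Benjamini-Hochberg adjustment and a threshold of 0.05, and differences are given on the log2 scale with limma's standard error (SE). In this comparison 0.772% of all genes passed as lower and 0.794% in either direction, against 4 of the 6 hormones, all lower. The median difference was -2.50 for the 6 hormones and 0.06 for all genes.

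Ppy encodes pancreatic polypeptide, the PP cell hormone that acts on gut motility and secretion. In mTEChi its log2 intensity was 11.70 and 11.17 with Aire and 6.69 and 6.20 without it. The groups lay far apart compared with the gap between arrays of a group. The difference was -4.99 (SE 0.442, n = 2 and 2, adjusted p = 0.00354, limma), the largest of the 6. Within arrays of one number it was -5.01 for number 1 and -4.97 for number 2.

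Pyy encodes peptide YY, a hormone of the same family released by gut endocrine cells after meals. Its mTEChi values were 10.84 and 10.49 with Aire and 7.75 and 8.14 without it. The groups did not overlap, and the difference was -2.72 (SE 0.317, adjusted p = 0.0121, limma). Ppy and Pyy neighbour each other in the gene table, and both fell. The protein-coding genes on the outer sides of the pair did not pass: Mpp2, beyond Ppy, differed by 0.16 and Nags, beyond Pyy, by 0.06 (adjusted p = 1 for each, limma). Npy, the third gene of the family, which encodes a neuronal peptide, read 10.48 and 10.05 in Aire+/+ and 7.05 and 7.21 in Aire-/- mTEChi, and fell by 3.13 on the log2 scale (SE 0.381, adjusted p = 0.0144, limma).

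Sst encodes somatostatin, the delta cell hormone that restrains the release of insulin and glucagon. The Aire+/+ mTEChi arrays were at 10.28 and 10.18, the Aire-/- arrays at 8.01 and 6.76. The knockout arrays were the lower and were themselves spread over 1.25. The difference was -2.84 (SE 0.425, adjusted p = 0.0346, limma). Its neighbours in the gene table, Rtp4 and Rtp2, differed by -0.40 and -0.12 and did not pass (adjusted p = 1 for each, limma).

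Iapp encodes islet amyloid polypeptide, which beta cells release together with insulin and which forms islet amyloid in some species. Its log2 intensity in mTEChi was 10.82 and 10.86 with Aire, and 8.19 and 8.91 without it. Both knockout arrays lay below both wild-type arrays, with a difference of -2.29 (SE 0.301, adjusted p = 0.0192, limma).

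Gcg, the gene of proglucagon, from which alpha cells cut glucagon and gut cells cut the incretin GLP-1, was at 6.98 and 6.75 on the Aire+/+ mTEChi arrays and at 6.81 and 6.58 on the Aire-/- mTEChi arrays. These arrays overlapped, and the difference was -0.17 (SE 0.408, adjusted p = 1, limma). Its 95% interval ran from -1.12 to 0.78, so a loss of the size seen for Ppy, Sst, Pyy or Iapp lay outside it. Such a loss would take Gcg below 5.86, its lowest reading on any of the 12 arrays. No detection call was used here, so whether a loss of that size could have shown is not known.

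Ins2 encodes the insulin that in the mouse is made in the thymus as well as in beta cells. In mTEChi it was at 5.14 and 5.38 with Aire and at 4.27 and 5.06 without it. The arrays did not overlap, which was so for 11.6% of all genes in this direction, but the difference of -0.59 (SE 0.363, adjusted p = 1, limma) did not exceed the spread, with a 95% interval from -1.44 to 0.25. Ins2 was dim throughout, between 3.99 and 5.38 on all 12 arrays, and its mean lay below the median of all genes. No detection call was used here, so how much of this reading is background is not known, and a difference in a dim gene is compressed by it. Its neighbours in the gene table did not pass: the growth factor gene Igf2 differed by -0.06 (adjusted p = 1) and Th, of catecholamine synthesis, by -1.08 (SE 0.293, adjusted p = 0.312, limma).

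**Figure D1:**
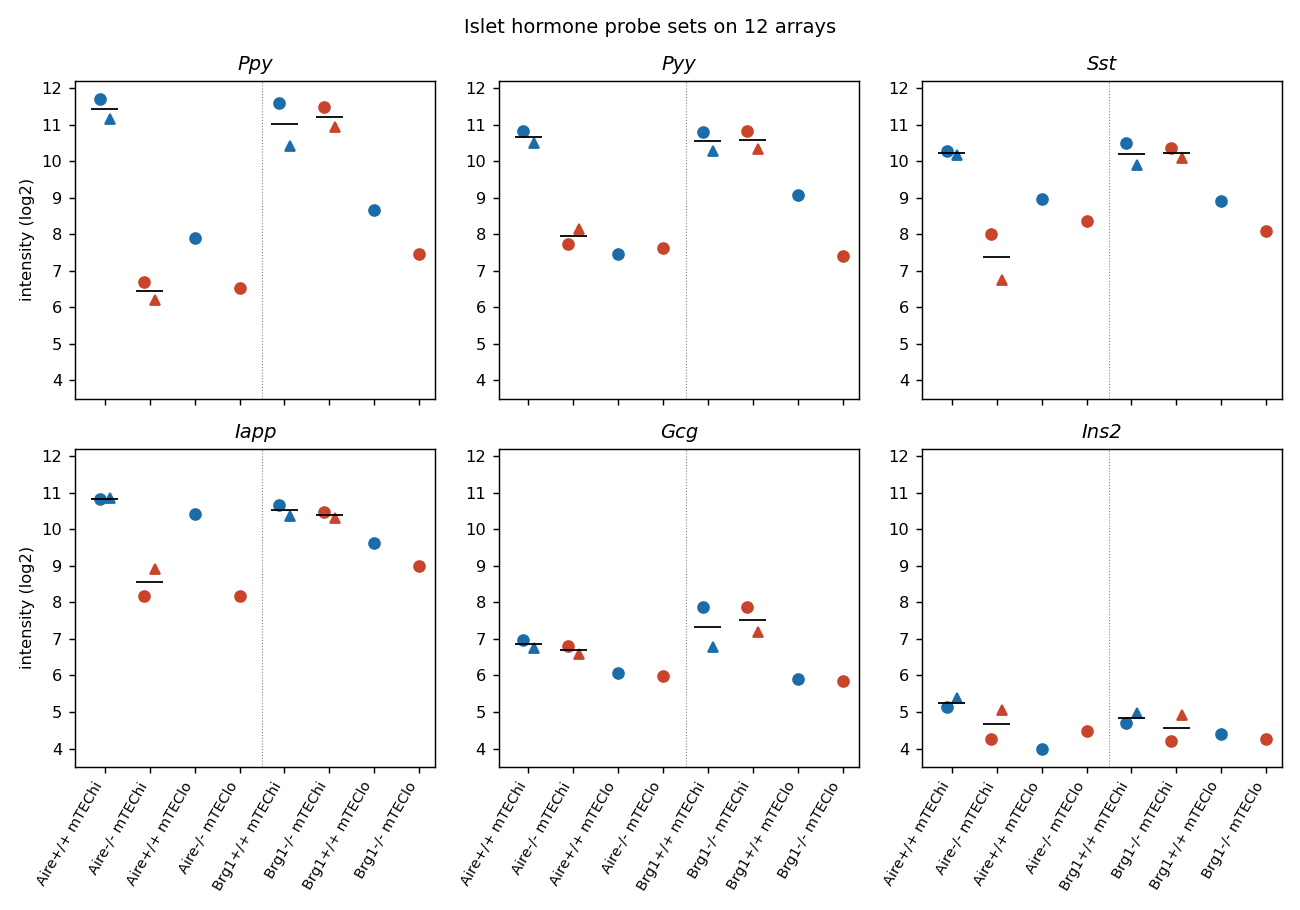
Log2 intensity (vertical axis) of the 6 islet hormone probe sets on 12 arrays in 8 groups (horizontal axis). Circles are arrays numbered 1, triangles arrays numbered 2, blue is wild type, red is knockout, and bars are means of 2 arrays. Ppy lies at 6.20 to 6.69 in Aire-/- mTEChi and at 10.42 to 11.70 in the other mTEChi groups. Heights are comparable within a panel and not between genes.

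The calls rested on few arrays, and each of the 4 hormones stayed lower whichever mTEChi array was left out. Ppy passed in each such fit, Pyy did not pass without any one Aire array (adjusted p from 0.0621 to 0.104), and Iapp and Sst each lost the call in 5 of the 8 fits (adjusted p from 0.0507 to 0.139 and from 0.0743 to 0.197, limma). The number of hormones called was 1 without Aire+/+ mTEChi replicate 1 or replicate 2. It was 2 without either Aire-/- or either Brg1-/- mTEChi replicate. In bulk RNA, fewer cells that transcribe a hormone and less RNA in each such cell cannot be told apart. Markers of other cells were read beside this comparison. Of 11 thymocyte, 12 myeloid and B cell, 8 cortical epithelial, 12 tuft and neuroendocrine-type, 12 fibroblast and endothelial and 12 mTEC markers measured, 0 passed (limma). At an unadjusted p under 0.05 the counts were 1, 0, 0, 1, 2 and 0. The summed intensity of the fibroblast and endothelial markers was 1256 and 1263 in Aire+/+ and 1879 and 1927 in Aire-/- mTEChi, the list median differed by 0.10, and its part in the result was not tested.

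The genes that make and release these hormones in islets were examined next. The lists were of islet transcription factors, of prohormone processing and granule genes, of glucose sensing and release genes, and of the hormones' receptors. None of these lists had a member that passed in either direction without Aire (limma), and at an unadjusted p under 0.05 the counts were 1, 1, 1 and 0, beside 1209 of all 22154 genes. Of the 18 transcription factors measured, 9 lay below 0 and 9 above, from -0.66 to 0.39 (median 0.00). Pdx1, the beta cell factor that binds the insulin promoter, differed by -0.20, Nkx6-1 by -0.13, Isl1, which acts in all islet endocrine cells, by -0.01 and the beta cell activator Mafa by 0.09 (adjusted p = 1 for each, limma). Of these only Isl1 and Mafa are among the list's 3 brightest genes, and Pdx1 and Nkx6-1 were picked with their values known.

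Of the 17 processing and granule genes measured, differences ran from -0.64 to 0.71 (median 0.03). Scg2, a granin of secretory granules, differed by -0.54, the oxidase gene Ero1b, which helps proinsulin to fold, by 0.71, and the granule peptide gene Vgf by -0.07 (adjusted p = 1 for each, limma). The 10 glucose sensing and release genes ran from -0.82 to 0.33 (median 0.19). The lowest was Cltrn, which encodes collectrin of the beta cell membrane (SE 0.255, adjusted p = 0.472, limma), and the other 9 lay above 0, with Abcc8 and Kcnj11, the subunits of the beta cell potassium channel, at 0.23 and 0.28 (adjusted p = 1 for each, limma). The 18 receptor genes ran from -0.52 to 0.44 (median 0.05), with the somatostatin receptors Sstr2 and Sstr3 at -0.02 and 0.24 (adjusted p = 1 for each, limma).

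Peptide hormones of gut and brain did move. Of 19 measured, 6 fell and 0 rose without Aire, with a list median of -1.58. Of all genes 0.772% passed as lower in this comparison. Nts, which encodes neurotensin, fell by 4.58 (SE 0.376, adjusted p = 0.00291), and Gal, which encodes galanin, by 4.24 (SE 0.32, adjusted p = 0.00218), both on the log2 scale by limma. Npy, given above, Cartpt (-3.00), Vip (-2.69) and Pomc (-2.40), which encodes the precursor of ACTH, were the other 4. The count was 11 with the array number as a block within each line, a fit in which 465 of all 22154 genes were lower, and 2 without any one Aire mTEChi array. Of 12 exocrine acinar enzymes measured, 2 fell, the elastase gene Cela3b (-3.19, SE 0.264, adjusted p = 0.00291) and the phospholipase gene Pla2g1b (-4.42, SE 0.508, adjusted p = 0.012), with a list median of -0.90. With the block 4 fell, and without either Aire+/+ mTEChi replicate 1 fell.

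**Figure D2:**
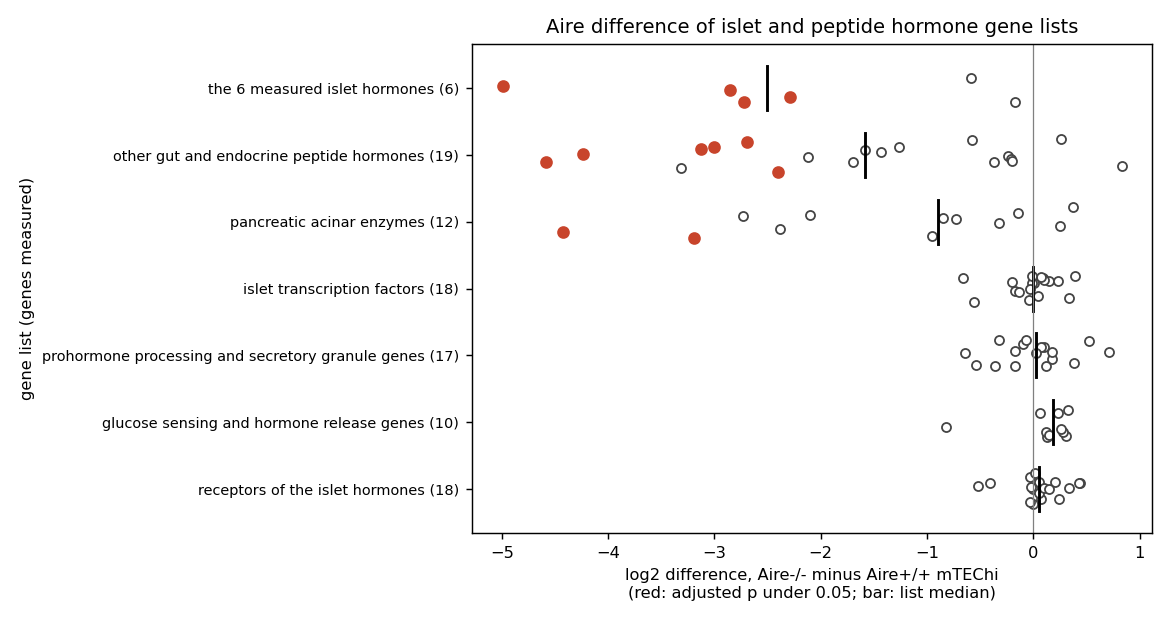
Each point is 1 gene, with the log2 difference of Aire-/- minus Aire+/+ mTEChi on the horizontal axis and the gene list on the vertical axis, and vertical jitter has no meaning. Red points passed the limma test at an adjusted p under 0.05 and black bars are list medians. The medians are -2.50 for the 6 islet hormones and -1.58 for other peptide hormones, and 0.00, 0.03, 0.19 and 0.05 for the 4 lists of islet machinery and receptors.

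The second comparison asked whether the hormones depended on Brg1 in mTEChi. None of the 6 passed (limma), nor did any of the 22154 genes (percent called 0). At an unadjusted p under 0.05 the count was 0 of the 6 hormones and 301 of all genes. In Brg1+/+ and Brg1-/- mTEChi, Ppy read 11.60 and 10.42 against 11.49 and 10.94. Pyy read 10.81 and 10.29 against 10.84 and 10.34, and Sst 10.50 and 9.91 against 10.36 and 10.10. In all 6 genes the knockout arrays overlapped the wild-type arrays, while 9.62% of all genes were lower and 9.77% higher without overlap.

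The intervals show what size of change these arrays leave possible. The difference was 0.20 for Ppy (95% interval from -0.83 to 1.24), 0.04 for Pyy (from -0.70 to 0.78), 0.02 for Sst (from -0.97 to 1.02) and -0.14 for Iapp (from -0.84 to 0.56). It was 0.21 for Gcg (from -0.74 to 1.16) and -0.28 for Ins2 (from -1.13 to 0.57). With quantile normalization the values for Pyy and Sst were both -0.03, so no direction is given for them. Iapp read 10.68 and 10.37 against 10.47 and 10.30, and Gcg 7.87 and 6.77 against 7.87 and 7.19. Ins2 read 4.70 and 4.97 against 4.20 and 4.91. In both Brg1+/+ and Brg1-/- mTEChi, 5 hormones read lower on the array numbered 2 than on the array numbered 1, and Ins2 read higher. The thymocyte markers summed to 800 and 798 on the Brg1+/+ arrays and to 736 and 2429 on the Brg1-/- arrays. The myeloid and B cell markers summed to 1249 and 1972 on the Brg1+/+ arrays and to 1358 and 1949 on the Brg1-/- arrays. The part of these cells in the order of the hormones was not tested.

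The difference between the knockouts was tested directly. The Brg1 difference minus the Aire difference was 5.19 for Ppy (SE 0.625, adjusted p = 0.0409, limma), which passed, as did 0.135% of all genes. It was 2.87 for Sst (SE 0.601, adjusted p = 0.259), 2.76 for Pyy (SE 0.448, adjusted p = 0.114) and 2.15 for Iapp (SE 0.425, adjusted p = 0.219), which did not pass by limma. With the array number as a block within each line these passed too, with adjusted p = 0.032 for Sst, 0.0157 for Pyy and 0.0366 for Iapp. Ppy did not pass without any one of the mTEChi arrays other than Brg1+/+ replicate 1 (adjusted p from 0.0896 to 0.232). For Gcg the value was 0.38 and for Ins2 0.32, neither of which passed with or without the block. Between the wild types of both lines no hormone passed (adjusted p = 1 for each, limma). Brg1+/+ minus Aire+/+ mTEChi lay between -0.42 and 0.46, with 95% intervals that reached from -1.46 for Ppy to 1.41 for Gcg. The value for Gcg was 0.79 with the block within each line and -0.09 without Brg1+/+ mTEChi replicate 1. Of all genes 0 passed that comparison and 240 had an unadjusted p under 0.05.

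**Figure D3:**
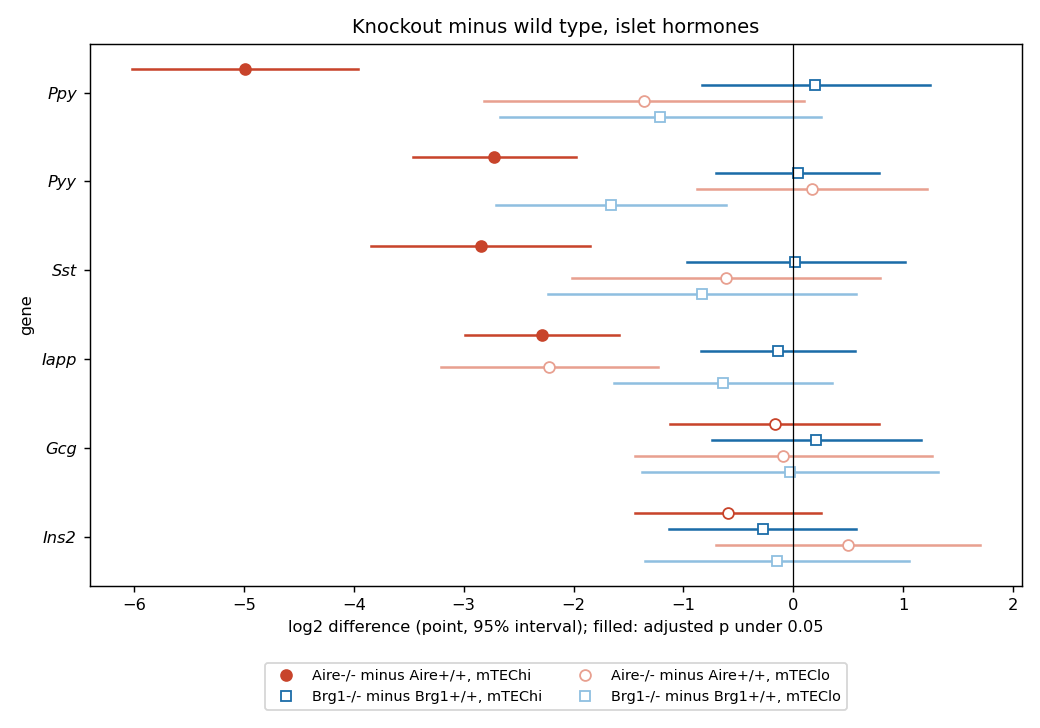
Log2 difference of knockout minus wild type (horizontal axis) for the 6 hormones (vertical axis), with the 95% interval of the limma fit as a line. Circles are the Aire line, squares the Brg1 line, dark colours mTEChi and pale colours mTEClo, and filled symbols passed at an adjusted p under 0.05. The 4 filled points are Ppy, Pyy, Sst and Iapp in Aire-/- mTEChi, between -4.99 and -2.29.

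The third comparison described the hormones by sorted fraction, as mTEChi against mTEClo in the wild types of both lines averaged. Ppy and Pyy were the hormones that passed, both higher in mTEChi with 4 arrays against 2. Ppy was 7.69-fold higher, a log2 difference of 2.94 (SE 0.383, adjusted p = 0.0112, limma). Pyy was 5.04-fold higher, a log2 difference of 2.33 (SE 0.274, adjusted p = 0.00828, limma). In this comparison 1.93% of all genes passed as higher, and the median of all genes was -0.10 against 1.20 for the 6 hormones. Sst differed by 1.28 (adjusted p = 0.165), Gcg by 1.11 (adjusted p = 0.217), Ins2 by 0.85 (adjusted p = 0.306) and Iapp by 0.66 (adjusted p = 0.335), which did not pass by limma. With the array number as a block within each line Sst (1.55, adjusted p = 0.0181) and Gcg (1.39, adjusted p = 0.00667) passed as well. Both wild-type mTEClo arrays are numbered 1, and the block treats this number as the same in both fractions, which was not checked. If it is the same, a difference between numbers enters the unblocked values in part. If it is not, the blocked values of the fractions are not corrected by it.

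The wild-type mTEClo arrays differed between the lines for some hormones. Ppy read 7.89 in Aire+/+ and 8.67 in Brg1+/+ mTEClo, and Pyy 7.47 and 9.08. Iapp read 10.41 and 9.63, and Sst 8.97 and 8.91. Iapp in Aire+/+ mTEClo thus lay within the range of the wild-type mTEChi arrays, 10.37 to 10.86, and was the only one of the 6 hormones in which wild-type mTEChi and mTEClo arrays overlapped. For the other 5 every wild-type mTEChi array lay above both wild-type mTEClo arrays, as for 11.4% of all genes. Between the lines the difference of the fractions itself differed by -1.72 for Pyy (SE 0.549, adjusted p = 1, limma), which did not pass with 1 mTEClo array a group.

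Within single genotypes the fractions were set beside each other with 2 mTEChi arrays and 1 mTEClo array, whose own spread was not measured. With the spread of the mTEChi groups in its place, Ppy and Pyy passed as higher in mTEChi in Aire+/+ and in Brg1-/- (adjusted p from 0.0261 to 0.0473, limma). No hormone passed in Aire-/- or Brg1+/+, which does not show that the genotypes differ. The share of all genes that passed as higher was 0.501% in Aire+/+, 0.384% in Aire-/-, 0.339% in Brg1+/+ and 0.542% in Brg1-/-. Without Aire the Ppy arrays of both fractions overlapped. The mTEChi arrays read 6.69 and 6.20 and the mTEClo array 6.53, a difference of -0.09 with a 95% interval from -1.35 to 1.18, against 3.54 (from 2.28 to 4.81) in Aire+/+ and 3.75 (from 2.49 to 5.02) in Brg1-/-. For Pyy the difference was 0.30 without Aire (from -0.60 to 1.21) and 3.19 with it (from 2.29 to 4.10). For Sst both Aire-/- mTEChi arrays, 8.01 and 6.76, lay below the Aire-/- mTEClo array at 8.36, the opposite order to every other genotype, with a difference of -0.98 (from -2.19 to 0.24) against 1.26 in Aire+/+. The Aire difference in mTEChi minus that in mTEClo was -3.63 for Ppy (adjusted p = 0.524), -2.89 for Pyy (adjusted p = 0.492) and -2.23 for Sst (adjusted p = 1), none of which passed by limma. Of all genes 0 passed and 547 had an unadjusted p under 0.05. With the block within each line the value for Ppy passed (adjusted p = 0.0229, limma) and that for Pyy did not (adjusted p = 0.0562, limma).

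Iapp read 10.41 in Aire+/+ and 8.19 in Aire-/- mTEClo, a difference of -2.22 between 1 array and 1 array that did not pass (adjusted p = 1, limma), beside -2.29 in mTEChi. The Aire difference in mTEChi minus that in mTEClo was -0.07 for Iapp, with a 95% interval from -1.29 to 1.15. Whether Iapp differs in this from the other hormones was not tested. Gcg was higher in every mTEChi array, at 6.58 to 7.87, than in every mTEClo array, at 5.86 to 6.07, in all 4 genotypes, as were 3.63% of all genes. Averaged over the 4 genotypes, a comparison added after these values were seen, Gcg was higher in mTEChi by 1.15 (SE 0.25, n = 8 and 4, adjusted p = 0.0395, limma), beside 3.67% of all genes that passed as higher. This call was lost without any one of 6 of the 8 mTEChi arrays, the Aire arrays and the Brg1-/- arrays (adjusted p from 0.0528 to 0.0868). In the same comparison Ppy (2.39, adjusted p = 0.00281) and Pyy (2.03, adjusted p = 0.00148) were higher, and Iapp (0.77, adjusted p = 0.0563), Sst (0.93, adjusted p = 0.0929) and Ins2 (0.54, adjusted p = 0.231) did not pass by limma. With the block within each line Iapp (adjusted p = 0.0299) and Sst (adjusted p = 0.0107) passed too.

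**Figure D4:**
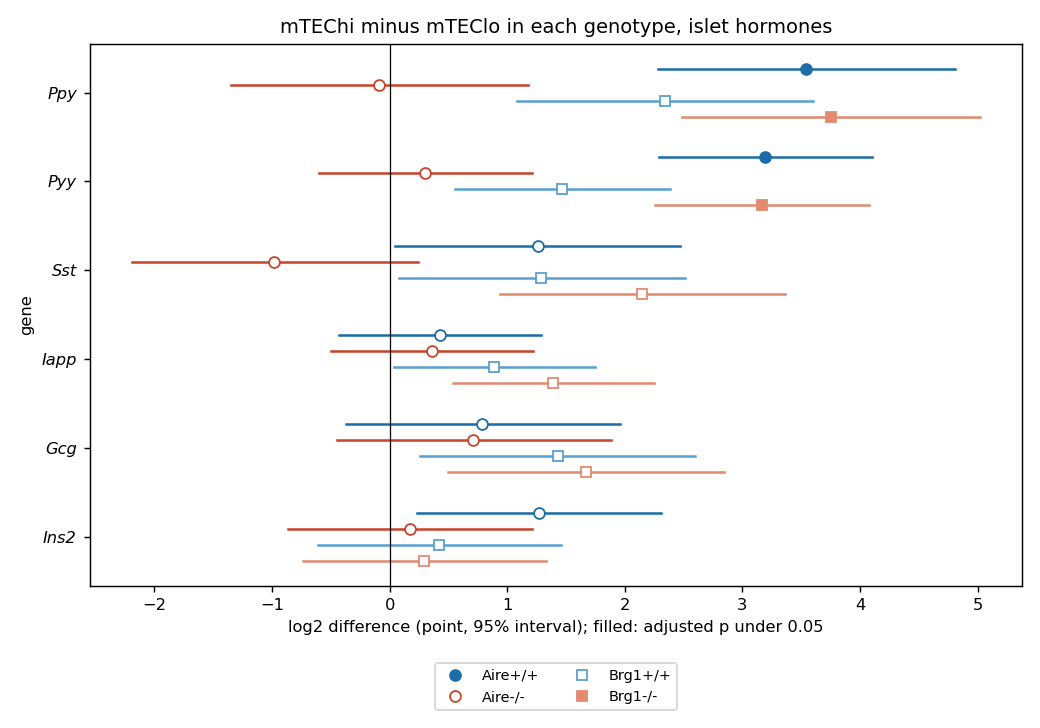
Log2 difference of mTEChi minus mTEClo (horizontal axis) in each genotype for the 6 hormones (vertical axis), with the 95% interval of the limma fit as a line, from 2 mTEChi arrays and 1 mTEClo array per genotype. Filled symbols passed at an adjusted p under 0.05. Ppy and Pyy lie at -0.09 and 0.30 in Aire-/- and between 1.47 and 3.75 in the other genotypes.

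Among mTEClo arrays, with 1 array a group, the knockouts were set beside their wild types as a description. In the Aire line Iapp and Ppy were lower by at least 1 log2 unit, as were 1.55% of all genes: Iapp differed by -2.22 and Ppy by -1.36. Sst differed by -0.61, Gcg by -0.09, Pyy by 0.17 and Ins2 by 0.50. In the Brg1 line Pyy and Ppy were lower by at least 1 log2 unit, as were 1.27% of all genes. Pyy read 9.08 in Brg1+/+ and 7.42 in Brg1-/- mTEClo, a difference of -1.66, and Ppy 8.67 and 7.46, a difference of -1.21. Sst differed by -0.83, Iapp by -0.64, Ins2 by -0.15 and Gcg by -0.03. None of these differences passed when the spread of the mTEChi groups was lent to the single arrays (adjusted p = 1 for each, limma). By limma 0 genes passed in either line, and 298 in the Aire line and 382 in the Brg1 line had an unadjusted p under 0.05. Markers of other cells also differed between the fractions. Of 12 tuft and neuroendocrine-type markers, the tuft cell genes Dclk1 (-2.58), Gnat3 (-2.88) and Il25 were lower in wild-type mTEChi (adjusted p from 0.00903 to 0.0213, limma), and the list median of -0.07 was close to that of all genes. The list summed to 937 to 1360 on the mTEChi arrays and 3286 to 4495 on the mTEClo arrays, the opposite order to the hormones. Thymocyte markers (574 to 2429 against 427 to 513) and myeloid and B cell markers (1249 to 2195 against 974 to 1099) ran the same way as the hormones. In the wild types 10 of 11 and 10 of 12 of them lay above 0, and 0 of either list passed (limma), with 1 and 3 at an unadjusted p under 0.05. The fibroblast and endothelial markers summed to 1180 to 1927 on the mTEChi arrays and 2051 to 3085 on the mTEClo arrays. Of 8 cortical epithelial markers 5 lay above 0 and 3 below in the wild types. Among them Ccl25 (1.61, adjusted p = 0.0311) and Tbata (1.17, adjusted p = 0.0445, limma) passed as higher in mTEChi, as did 1.93% of all genes. Over the 4 genotypes Ccl25 and Tbata again passed as higher. There Ctsl (-1.37, adjusted p = 0.00851) and Cxcl12 (-1.01, adjusted p = 0.0121, limma) passed as lower, as did 2.11% of all genes. The part of these cells in the hormone values was not tested.

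The islet machinery was also set beside the fractions. In the wild types 0 of the 18 transcription factors, 17 granule genes, 10 glucose sensing genes and 18 receptors passed in either direction (limma), and 1, 0, 2 and 1 had an unadjusted p under 0.05, beside 2841 of all 22154 genes. Of all genes 0.632% passed as lower in mTEChi. With the array number as a block within each line 1 transcription factor, 1 glucose sensing gene and 2 receptors were lower in mTEChi, as were 552 of all 22154 genes. Over the 4 genotypes, where 2.11% of all genes passed as lower in mTEChi, the difference of Isl1 was -1.19 (SE 0.178, adjusted p = 0.00894, limma). It read 6.56 to 7.22 on the mTEChi arrays and 7.71 to 8.36 on the mTEClo arrays. Trpm5, a cation channel of tuft cells and beta cells, differed by -1.15 (SE 0.175, adjusted p = 0.00974, limma). Of the 19 other peptide hormones 7 were higher in wild-type mTEChi, as were 1.93% of all genes, and 0 were lower. Among the 7 were Gal (3.36, SE 0.277, adjusted p = 0.00259) and Nts (3.12, SE 0.326, adjusted p = 0.00547, limma). With the block within each line the count was 15, and 982 of all 22154 genes were higher.

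For each hormone the genes with the most similar profile over the 12 arrays were named by Pearson's r, out of 17281 genes that remained after predicted genes, small RNAs and olfactory and vomeronasal receptors were left out. The arrays share groups and numbers, so r is a description. Ppy was most like Nts (r = 0.992), the Paneth cell defensin Defa24 (r = 0.990) and the beta-defensin Defb19 (r = 0.988). Pyy was most like Vip (r = 0.982), the protease gene Prss29 (r = 0.981) and Dhrs2 (r = 0.979). Sst was most like the cystatin gene Cst9 (r = 0.958), the seminal vesicle gene Svs4 (r = 0.955) and Ppy (r = 0.955). Iapp was most like the goblet cell gene Tff3 (r = 0.944), Retnla (r = 0.934) and Dcpp2 (r = 0.933). Gcg was most like the lipocalin Lcn12 (r = 0.958), Gtsf1 (r = 0.952) and Iltifb (r = 0.949), of which Lcn12 differed by -0.10, Gtsf1 by -0.28 and Iltifb by -0.51 without Aire in mTEChi (adjusted p = 1 for each, limma). Ins2 was most like Fbxo15 (r = 0.937), the lens crystallin Crygd (r = 0.917) and Fgf4 (r = 0.910), which like Ins2 read no more than 6.01 on any array.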

How the data were processed

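RNA of sorted mTECs was measured on 12 arrays in 8 groups, taken from the genotype, fraction and number in the labels. The deposited values are 1 intensity per probe set and array on a linear scale. Per the submitters' processing notes RMA, the Transcriptome Analysis Console and the Affymetrix Expression Console were used, and what each did is not recorded. RMA sets arrays to a common scale, and the sources used here do not say which arrays went through it jointly. Analysis started from the log2 of each intensity, without pseudocount, filter or further scaling, and no detection call was used, so dim values hold unknown background. Of 33732 probe sets, 23491 had 1 gene symbol, and the brightest per gene left 22154 genes. Names and gene order came from RefSeq's table of GRCm38.p6.

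Fits used limma 3.58.1 in R 4.3.3 (lmFit, eBayes), as 8 group means with 4 residual degrees of freedom, two-sided, with Benjamini-Hochberg adjustment at 0.05. The spread of the mTEChi groups stands in for that of the single mTEClo arrays, and the number of arrays limits the precision. In a simulation of the Aire comparison (22154 genes, 50 changed per size), 0% were recovered at 1 log2 unit, 46% at 2, 86% at 3 and 96% at 5, with 5 false calls. The simulation drew its noise independently for each gene and array, without the shared deviations described next. Its rates may therefore differ from those of the real fit. Same-numbered arrays deviated together in all 6 pairs of mTEChi groups (r over 22154 genes from 0.552 to 0.657). This pairing comes from the data and not from the labels, and the number was also fitted as a block. The block counts every mTEClo array as number 1. Whether that number means the same in mTEClo as in mTEChi was not checked, and blocked comparisons that use mTEClo arrays rest on it. Other alternatives were scaling, a filter on dim genes, the variance prior, the mean of probe sets and single arrays left out. The members, lists and tests were chosen with earlier results of these data known. Named genes are the members, list genes that passed (up to 6 a list) or the 3 brightest where none passed, and the 3 genes most like each member. Cck, Calcb, Pdx1, Nkx6-1, the neighbouring genes and the comparison over 4 genotypes were added after values were seen. Cltrn was named outside this rule, as the lowest value of its list.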

Additional observations from a re-analysis of the deposited data

Results flagged for a closer look

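Differences between groups brought 4 results here. The Brg1 difference minus the Aire difference in mTEChi was 5.19 for Ppy, which passed the test of the difference (adjusted p = 0.0409, limma). The other 3 came from opposite directions of the Aire line in the fractions, with arrays that did not overlap between genotypes or between fractions. Each mTEClo group has 1 array, so between genotypes in mTEClo any unequal values count as not overlapping. The share of all genes with such opposite directions was not counted. For Pyy both Aire-/- mTEChi arrays lay below Aire+/+ while the Aire-/- mTEClo array lay above, and the difference of the differences was -2.89 (adjusted p = 0.492, limma). For Ins2, which was dim and read no more than 5.38 on any array, the same order gave -1.09 (adjusted p = 1, limma). For Sst mTEChi lay above mTEClo in Aire+/+ and below it in Aire-/-, with a value of -2.23 (adjusted p = 1, limma). These 3 were tested and did not pass.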

How the results depend on the processing

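The 4 calls of the Aire comparison in mTEChi (Ppy, Pyy, Sst, Iapp) held with either replicate block, median centring, quantile normalization, the filter on dim genes, a trend in the variance prior and the mean of probe sets, and 1 to 4 hormones were called when single mTEChi arrays were left out. With the replicate block, within each line or common to both, the number of hormones called rose from 2 to 4 for mTEChi against mTEClo in wild types, from 1 to 4 for the Brg1 minus the Aire difference, from 0 to 1 for the Aire difference between fractions and from 3 to 5 over the 4 genotypes. It changed no other count of hormones. Without single mTEChi arrays the Brg1 minus Aire count was 0 to 1, and the other comparisons kept counts within 1.5 times. No called difference changed sign in any setting. Of 801 values of single hormones under an alternative, 728 kept direction and call, 27 lost a call, 20 gained one and 26 uncalled values changed sign. Over all genes, 176 passed the Aire comparison, 531 with the block within each line and 569 with the common one. For mTEChi against mTEClo in wild types the counts were 567, 1534 and 1757, and for the Brg1 minus Aire difference 30, 201 and 228. Why the block adds calls was not tested beyond the shared deviation of array numbers. Ins2 was left out by the filter on dim genes, so it has no value there.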

Other observations

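The other peptide hormones did not all follow Aire. Calcb, which encodes a calcitonin gene-related peptide, was higher in wild-type mTEChi than mTEClo by 2.42 (SE 0.22, adjusted p = 0.00339, limma). The Aire+/+ mTEChi arrays were at 9.39 and 9.78, the Aire-/- mTEChi arrays at 10.34 and 10.49, and the mTEClo arrays between 6.79 and 7.40. The Aire difference of 0.83 did not pass (adjusted p = 0.457, limma), and the knockout arrays were the higher. Gcg was higher in mTEChi than in mTEClo by 0.79 in Aire+/+ and by 0.71 in Aire-/-. Each value came from 2 mTEChi arrays and 1 mTEClo array, and neither passed by limma. Galanin and neuropeptide Y did follow Aire: Gal was at 10.09 and 9.94 with Aire in mTEChi and at 5.35 and 6.20 without it, beside 5.59 to 7.14 on the mTEClo arrays. Cck, the gut hormone gene of cholecystokinin, had a difference of -3.31 without Aire that did not pass (adjusted p = 0.22, limma).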
